A study of Mus musculus with 20 samples.

Results

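The genes described here build the autophagosome, the double membrane that carries cytoplasm and organelles to the lysosome, or mark mitochondria for that route (mitophagy). The list held 35 genes. A gene counted as measured when a probe set of the array carried its symbol and no other. That held for 33 of the 35 genes, each with 1 probe set, among 19505 genes with such a probe set. Optn and Pink1 were not analysed here.

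RNA was measured on 20 mouse Clariom S arrays, 2 in each of 10 groups. The values are log2 signals, so a difference of 1 is a doubling. Cultured cells gave 8 arrays. They came from marrow depleted of mature lineages, taken from female wild-type C57BL/6 mice (2 mice) and grown with erythropoietin. Interleukin 6 (IL-6, an inflammatory cytokine) at 100 ng/mL was present from the start in IL-6 cultures and absent from control cultures, and cells were collected at points named D1 and D2 that the labels do not define further. Cells labelled as erythroblasts, from mice aged 1 year, gave the other 12 arrays. These mice were double knockouts (DKO) that lack mDia1, a formin encoded by Diaph1, and the microRNA miR-146a, or double wild type (DWT), with 2 mice per genotype. The stages were I (proerythroblasts), II+III (basophilic and polychromatic erythroblasts) and IV (orthochromatic erythroblasts). All DKO arrays came from females, and at each stage replicate 1 of DWT came from a male and replicate 2 from a female, so that genotype and sex are partly mixed. How the stages were isolated is not given in the sources used here, and the labels do not tie cultures or DKO arrays to single mice. The p-values therefore measure the spread between arrays.

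A check of the arrays bears on what follows. Diaph1 lay at 6.87 to 7.59 in the 6 DKO arrays and at 9.29 to 11.49 in the 6 DWT arrays. The background level, the 95th percentile of 23 background probe sets on each array, ranged from 7.25 to 7.74, and a value under it is called near background. Replicate arrays correlated at 0.9697 to 0.9935 over all probe sets except the DKO stage I pair, at 0.9025. DKO-I replicate 2 stands apart: its ribosomal gene Rps14 lay at 12.32 against 16.02 or more elsewhere. The labelled cell type was checked against 8 erythroid markers, whose mean was 14.5 to 14.8 in all culture arrays, 9.9 and 9.3 in DKO-I, 13.1 and 13.0 in DWT-I, and 12.2 or more in the other arrays from mice. On each DKO-I array 2 of the 8 erythroid markers were near background, and on no DWT-I array. The 9 neutrophil markers averaged 17.6 and 16.4 in DKO-I and 16.77 and 16.97 in DWT-I, so stage I arrays of both genotypes carried strong neutrophil signal. They averaged 16.1 and 16.1 in DKO-II+III, and 12.05 and 13.8 in DWT-II+III. The 5 proerythroblast markers averaged 12.34 and 12.37 in DWT-I against 13.20 and 13.01 in DWT-II+III. In DKO they averaged 10.998 and 8.83 at stage I against 12.68 and 11.08 at stage II+III. Their mean was thus not highest at stage I, the stage labelled as proerythroblasts, in either genotype. In DWT, 4 of the 5 were higher at stage II+III and 1 lower, with 0 at an adjusted p under 0.05 (limma). The names of the stages below are those of the labels. For DKO-I, DWT-I and DKO-II+III the erythroid and neutrophil markers do not establish that erythroblasts were the main cells.

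Autophagosome formation starts with a kinase complex around ULK1 or ULK2, which activates a lipid kinase complex containing BECN1 and ATG14. ATG9A vesicles and the lipid carriers ATG2A and ATG2B then feed the growing membrane, and 2 linked conjugation reactions attach ATG8 proteins (the LC3 and GABARAP families) to it. Receptors such as SQSTM1 and BNIP3L tether cargo to ATG8 proteins. In mice, maturing red cells clear their mitochondria this way, and loss of Bnip3l (also called Nix), Ulk1 or Atg7 is known to impair that clearance.

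Most of these genes rose in culture between D1 and D2, and the conjugation genes Atg5, Atg7, Atg10 and Atg3 fell in control cultures. The calls of Atg10 and Atg3 did not hold under every alternative tried. The promoter sequences below are shown for 3 genes with large rises and for Atg3 and Atg5, conjugation genes that fell. They were chosen after the values were seen. Each is the 250 bases before a transcript start annotated at or within 39 bases of the gene's first base, printed 5′ to 3′ on the gene's strand, from the RefSeq annotation of GRCm38.p6. Capitals mark CACGTG, the core of the E-box that the lysosome regulator TFEB and other factors bind. The printed set does not stand for the list in this motif. Atg14, which rose, holds it in its window, and Atg10, Atg2b and Atg4b, which fell, do not. None of these is printed. The windows lie at chr5:110810082-110810331 (minus strand) for Ulk1, chr8:111940453-111940702 (plus) for Gabarapl2, chr11:50210821-50211070 (minus) for Sqstm1, chr16:45158579-45158828 (plus) for Atg3 and chr10:44268089-44268338 (plus) for Atg5.
Ulk1: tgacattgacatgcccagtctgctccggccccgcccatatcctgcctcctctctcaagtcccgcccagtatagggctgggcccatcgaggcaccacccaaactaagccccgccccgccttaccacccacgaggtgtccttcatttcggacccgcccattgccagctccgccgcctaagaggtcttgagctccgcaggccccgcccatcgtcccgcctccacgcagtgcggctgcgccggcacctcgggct
Gabarapl2: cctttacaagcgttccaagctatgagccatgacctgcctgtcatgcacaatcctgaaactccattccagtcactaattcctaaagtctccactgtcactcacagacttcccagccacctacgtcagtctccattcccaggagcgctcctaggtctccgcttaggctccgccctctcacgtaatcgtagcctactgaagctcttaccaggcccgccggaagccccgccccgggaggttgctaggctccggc
Sqstm1: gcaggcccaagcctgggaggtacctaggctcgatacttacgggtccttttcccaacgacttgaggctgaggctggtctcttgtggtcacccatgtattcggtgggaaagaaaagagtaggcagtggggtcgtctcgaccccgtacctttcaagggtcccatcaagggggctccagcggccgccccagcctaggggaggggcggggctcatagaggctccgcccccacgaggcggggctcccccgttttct
Atg3: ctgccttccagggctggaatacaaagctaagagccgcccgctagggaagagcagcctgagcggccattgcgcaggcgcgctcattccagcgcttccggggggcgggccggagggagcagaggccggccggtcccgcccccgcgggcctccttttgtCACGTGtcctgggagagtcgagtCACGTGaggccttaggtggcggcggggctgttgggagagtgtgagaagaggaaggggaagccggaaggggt
Atg5: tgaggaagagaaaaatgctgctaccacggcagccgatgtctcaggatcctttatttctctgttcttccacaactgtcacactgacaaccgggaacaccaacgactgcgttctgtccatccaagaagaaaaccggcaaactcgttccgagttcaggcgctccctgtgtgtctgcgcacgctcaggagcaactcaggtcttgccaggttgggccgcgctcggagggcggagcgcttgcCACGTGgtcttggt

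Windows of 300 bases (250 before to 50 after the start) were matched for 26 of the 33 measured genes. The transcript start used lay within 100 bases of the gene's first base in 19 of them, and lay farthest inside the gene for Atg7 (27969 bases) and Atg4c (4775 bases). CACGTG, which reads the same on both strands, occurred in 5 of the 26 (19.2%: Atg14, Atg3, Atg5, Atg7 and Bnip3) and in 8.1% of all 27025 genes with a window, counting a gene once if any of its windows held the motif. Atg3 held 2 matches. Among the genes that fell at D2 in control cultures, 3 of 6 held the motif (with Atg7 counted by its internal start), as did 2 of the 13 with a window that rose. GATAA, a core of GATA factor sites, was found on either strand in 4 of the 26 (15.4%: Atg14, Atg2b, Atg4a and Atg4d) and in 28.4% of all genes. GTAAACA, a core of FOXO sites, was found in 0 of the 26 and in 4.1% of all genes. These motifs do not overlap each other in letters, and a match describes the sequence only.

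**Figure D1:**
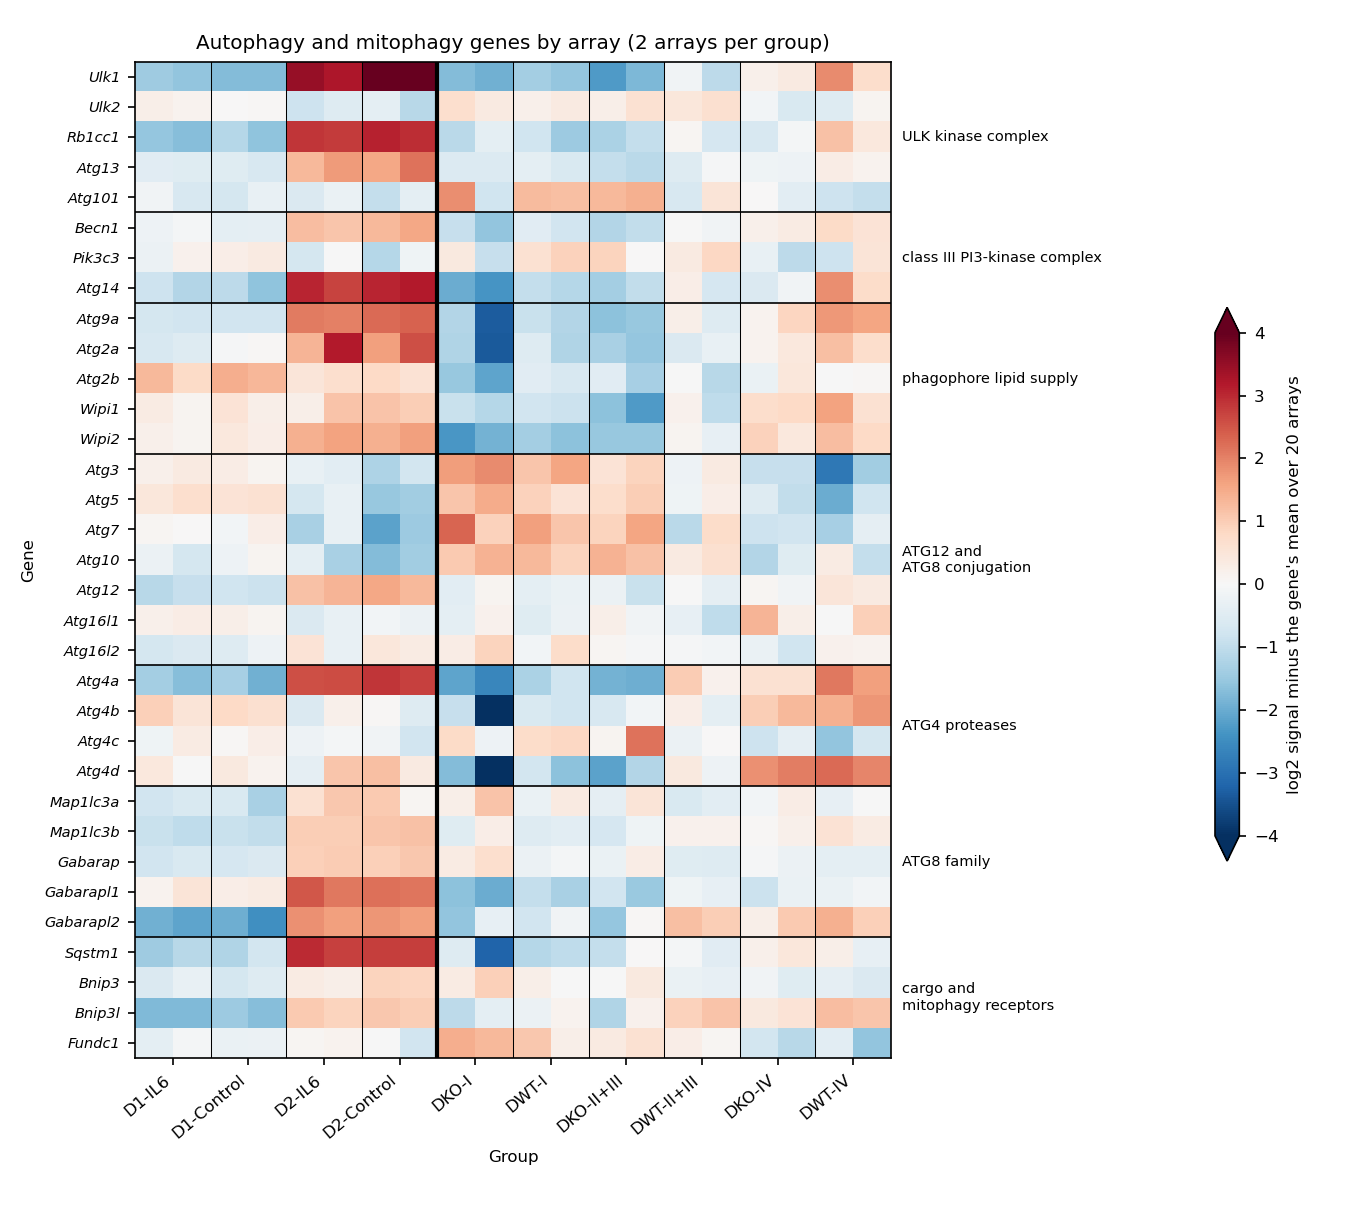
Heat map of the 33 measured genes (rows, grouped by role) on the 20 arrays (columns, 2 per group). Colour is the log2 signal minus the gene's own mean over the 20 arrays, with values beyond 4 in either direction drawn at the end of the scale. Both D2 groups are red for Ulk1, Rb1cc1, Atg14, Atg9a, Atg4a, Gabarapl2 and Sqstm1, and DKO-I replicate 2 is dark blue for Atg9a, Atg2a, Atg4b, Atg4d and Sqstm1.

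At D2 against D1 in control cultures, 18 of the 33 genes were higher and 6 lower at an adjusted p under 0.05 (limma with Benjamini-Hochberg adjustment over 19572 probe sets). Of all probe sets, 19.7% were higher and 23.5% lower. The median log2 fold change was 1.49 over the 33 genes and 0.17 over all probe sets, and quantile normalization moved these medians to 1.53 and 0.03. The arrays of D2 and D1 did not overlap for 30 of the 33 genes, against 75.3% of all probe sets. In IL-6 cultures 17 genes were higher and 2 lower, against 13% and 20.2% of all probe sets, with medians of 1.32 and 0.09. The control and IL-6 comparisons share no arrays, but they share the fit's estimate of the spread. All 19 genes that passed in IL-6 cultures also passed in control cultures in the same direction, which is 100% of the IL-6 calls and 79.2% of the 24 control calls. Over all probe sets, 83.7% of the IL-6 calls and 64.2% of the control calls were shared in this way.

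The ULK complex held the largest rise of the list. Ulk1, its kinase, lay at 14.49 and 14.73 in D2-Control against 8.68 and 8.68 in D1-Control, a log2 fold change of 5.93 ± 0.21 (standard error; limma adjusted p = 2.76e-08). In D2-IL6 it lay at 13.90 and 13.63, against 8.98 and 8.82 in D1-IL6 (4.87 ± 0.21). No D2 array came near a D1 array in either culture. Rb1cc1 encodes FIP200, the scaffold of the complex, and its signal was 13.37 and 13.25 in D2-Control against 9.17 and 8.70 in D1-Control (4.38 ± 0.24). With IL-6 it was 13.16 and 13.10 at D2 against 8.75 and 8.60 at D1 (4.45 ± 0.24). Atg13, the adaptor subunit, lay at 10.32 and 10.94 in D2-Control against 8.27 and 8.13 in D1-Control (2.43 ± 0.30), and rose by 1.96 ± 0.30 in IL-6 cultures. Ulk2, a related kinase, did not pass in either culture, with log2 fold changes of -0.79 in control and -0.85 in IL-6 cultures. It did pass in both with dim probe sets removed (adjusted p = 0.0426 in control and 0.0348 in IL-6 cultures), with no intensity trend (0.0444 and 0.042) and with median centring (0.0457 and 0.0487). Atg101, which binds ATG13, averaged 10.10 in D2-Control and 10.27 in D1-Control.

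In the lipid kinase complex, Atg14, which targets it to autophagosome sites, lay at 11.71 and 11.83 in D2-Control against 7.61 and 7.03 in D1-Control. Both D1-Control arrays were near background, so that the rise is at least 4.15 on the log2 scale. D2-IL6 arrays held 11.68 and 11.36 against 7.81 and 7.48 in D1-IL6 (3.88 ± 0.29). Becn1, the regulatory subunit, rose by 1.81 ± 0.21 in control and 1.32 ± 0.21 in IL-6 cultures. Pik3c3, the catalytic subunit, was near background on all 4 control culture arrays.

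Genes of membrane supply rose in part. Atg9a, the scramblase of the vesicles that seed the membrane, had 14.31 and 14.40 in D2-Control against 11.30 and 11.29 in D1-Control (3.06 ± 0.16), and its D2-IL6 arrays had 14.13 and 14.06 against 11.36 and 11.30 in D1-IL6 (2.77 ± 0.16). Atg2a, a lipid transfer protein, rose by 2.12 ± 0.51 in control cultures (10.45 and 11.40 in D2-Control against 8.75 and 8.85 in D1-Control) and by 2.83 ± 0.51 in IL-6 cultures (10.15 and 11.97 in D2-IL6 against 8.17 and 8.29 in D1-IL6). Between replicates it differed by 0.95 (D2-Control) and 1.82 (D2-IL6), and in control cultures the call is lost without D2-Control replicate 2 (adjusted p = 0.0596). Wipi2, a PI3P reader that recruits the conjugation machinery, rose by 1.19 ± 0.13 in control and 1.35 ± 0.13 in IL-6 cultures. Wipi1, a related reader, did not pass (0.68 and 0.49), but did in both cultures under quantile normalization (1.27 and 1.02). Atg2b, the paralogue of Atg2a, lay at 11.02 and 10.77 in D2-Control against 11.66 and 11.52 in D1-Control (-0.69 ± 0.25, limma adjusted p = 0.0447). That call is lost without any 1 of the 4 control culture arrays, in a fit of all 20 arrays and under quantile normalization, where the change is -0.18.

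The conjugation genes were the one role where lower calls outnumbered higher calls in control cultures, with 4 lower and 1 higher of 7. Atg5, which pairs with ATG12, lay at 9.18 and 9.29 in D2-Control against 11.24 and 11.29 in D1-Control (-2.03 ± 0.25, limma adjusted p = 7.81e-05). In IL-6 cultures it lay at 10.00 and 10.40 at D2 against 11.15 and 11.36 at D1 (-1.06 ± 0.25), a call lost under quantile normalization, in a fit of all 20 arrays and without D1-IL6 replicate 2. Atg7, the E1-like enzyme of both reactions, had 9.60 and 10.29 in D2-Control against 11.64 and 12.01 in D1-Control (-1.88 ± 0.35). These Atg7 groups did not overlap, and neither did its D2-IL6 arrays (10.45 and 11.44) and D1-IL6 arrays (11.82 and 11.76), but the IL-6 change of -0.85 did not pass. It did with dim probe sets removed (adjusted p = 0.0481) and without D2-IL6 replicate 2 (0.0122). Atg3, the E2-like enzyme for ATG8 proteins, had 10.18 and 10.68 in D2-Control against 11.72 and 11.53 in D1-Control (-1.19 ± 0.24), with an adjusted p of 0.059 under quantile normalization. Its change of -0.64 in IL-6 cultures did not pass, except with dim probe sets removed (adjusted p = 0.0345) or median centring (0.0409). Atg10, the E2-like enzyme for ATG12, was near background in D2-Control at 6.45 and 6.79 against 7.97 and 8.29 in D1-Control, a change bounded at -0.65 against that level, which is lost without D1-Control replicate 2 (adjusted p = 0.0504). Atg12, the ubiquitin-like protein itself, moved the other way, at 12.83 and 12.57 in D2-Control against 10.48 and 10.42 in D1-Control (2.25 ± 0.21), and at 12.45 and 12.62 in D2-IL6 against 10.17 and 10.36 in D1-IL6 (2.28 ± 0.21). Atg16l1, which anchors the finished conjugate, and its paralogue Atg16l2 did not pass in either culture.

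All 5 ATG8 genes rose in both cultures. Gabarapl2 (GATE-16) lay at 15.73 and 15.61 in D2-Control against 12.002 and 11.52 in D1-Control (3.91 ± 0.18), and at 15.78 and 15.61 in D2-IL6 against 12.02 and 11.86 in D1-IL6 (3.76 ± 0.18). Map1lc3b, the source of LC3B, rose by 2.08 ± 0.08 in control and 1.93 ± 0.08 in IL-6 cultures, Gabarapl1 by 1.86 and 1.97, and Gabarap by 1.65 and 1.67. Map1lc3a passed with fitted changes of 1.52 and 1.54, but its D1 arrays and 1 D2 array of each culture were near background. Against that level the change was at least 0.23 with IL-6, while in control cultures the D2 mean did not exceed the D1 background level, so no bound is given. Its calls are lost without D1-Control replicate 2, D2-Control replicate 1, D1-IL6 replicate 1 or D2-IL6 replicate 2. ATG4 proteases trim ATG8 proteins before conjugation and release them afterwards. The Atg4a probe set lay at 15.06 and 14.94 in D2-Control against 10.87 and 10.28 in D1-Control (4.42 ± 0.22), and at 14.80 and 14.83 in D2-IL6 against 10.84 and 10.52 in D1-IL6 (4.14 ± 0.22). Its name places this probe set on chromosome 3, where RefSeq has the copy Atg4a-ps, whereas Atg4a is on chromosome X. The signal of gene and copy cannot be told apart here. Atg4b, the main protease in mammals, lay at 12.82 and 12.27 in D2-Control against 13.57 and 13.41 in D1-Control (-0.95 ± 0.28). Its D2-IL6 arrays held 12.18 and 12.97 against 13.72 and 13.28 in D1-IL6 (-0.93 ± 0.28), and neither call is stable. The control call is lost without either D1-Control array or D2-Control replicate 2, the IL-6 call without D1-IL6 replicate 1 or D2-IL6 replicate 1, and both in a fit of all 20 arrays. With no intensity trend the IL-6 call is lost as well (limma adjusted p = 0.0562). Atg4c, near background on 19 of 20 arrays, and Atg4d did not pass.

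Of the receptors, Sqstm1 (p62, which binds ubiquitinated cargo) lay at 16.66 and 16.65 in D2-Control against 12.70 and 13.17 in D1-Control (3.72 ± 0.17). With IL-6 it lay at 16.88 and 16.64 at D2 against 12.49 and 12.80 at D1 (4.12 ± 0.17). Bnip3l, the mitophagy receptor of red cell precursors, had 16.45 and 16.34 in D2-Control against 13.91 and 13.66 in D1-Control (2.61 ± 0.12), and its D2-IL6 arrays had 16.40 and 16.24 against 13.61 and 13.60 in D1-IL6 (2.72 ± 0.12). For both genes every D2 array lay above every D1 array. Bnip3, its paralogue, was near background at D1 and rose by at least 0.53 in control cultures, while Fundc1, another outer membrane receptor, did not pass.

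**Figure D2:**
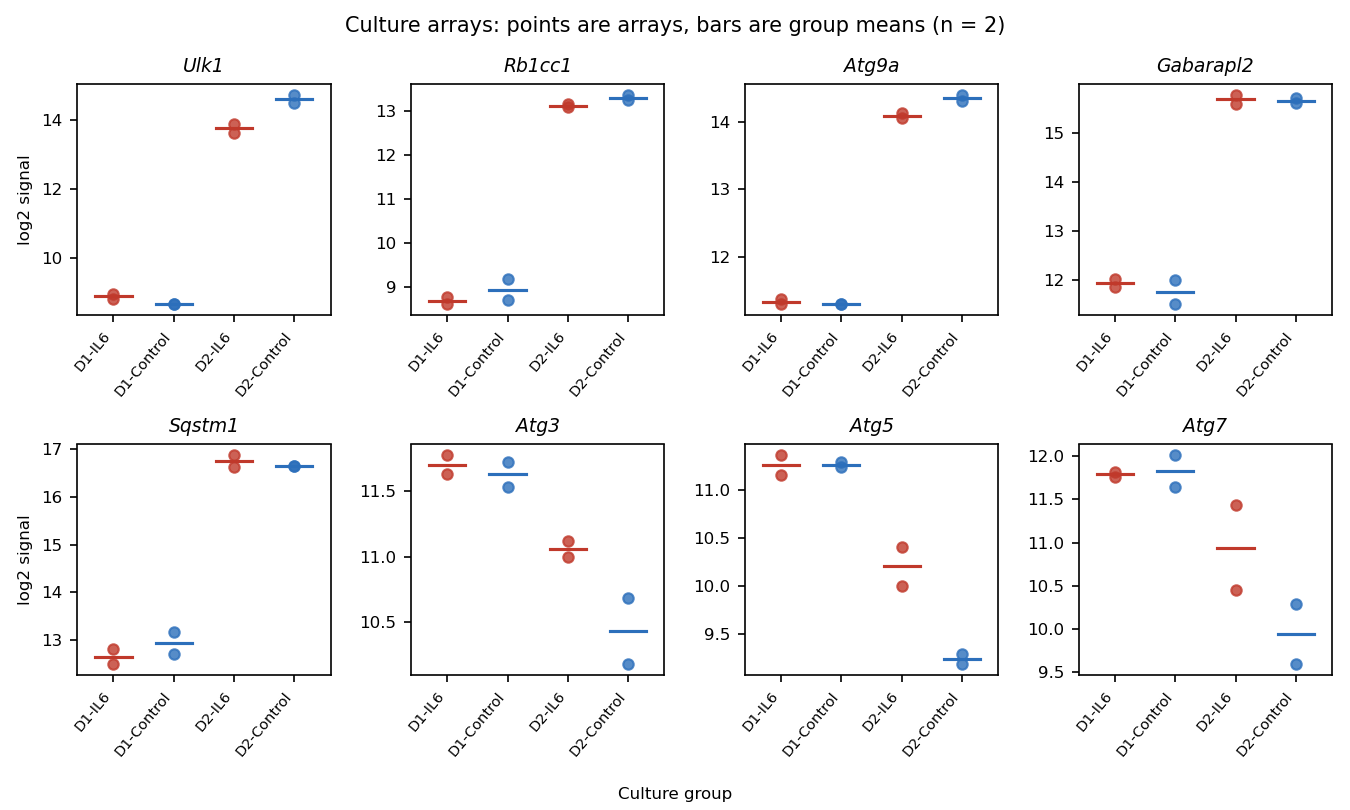
Log2 signal of 8 genes in the 4 culture groups; each point is an array and each bar a group mean (n = 2), with IL-6 groups in red and control groups in blue. Ulk1, Rb1cc1, Atg9a, Gabarapl2 and Sqstm1 sit above every D1 array at D2, and Atg3, Atg5 and Atg7 sit below every D1 array at D2, lowest in D2-Control by group mean.

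**Figure D3:**
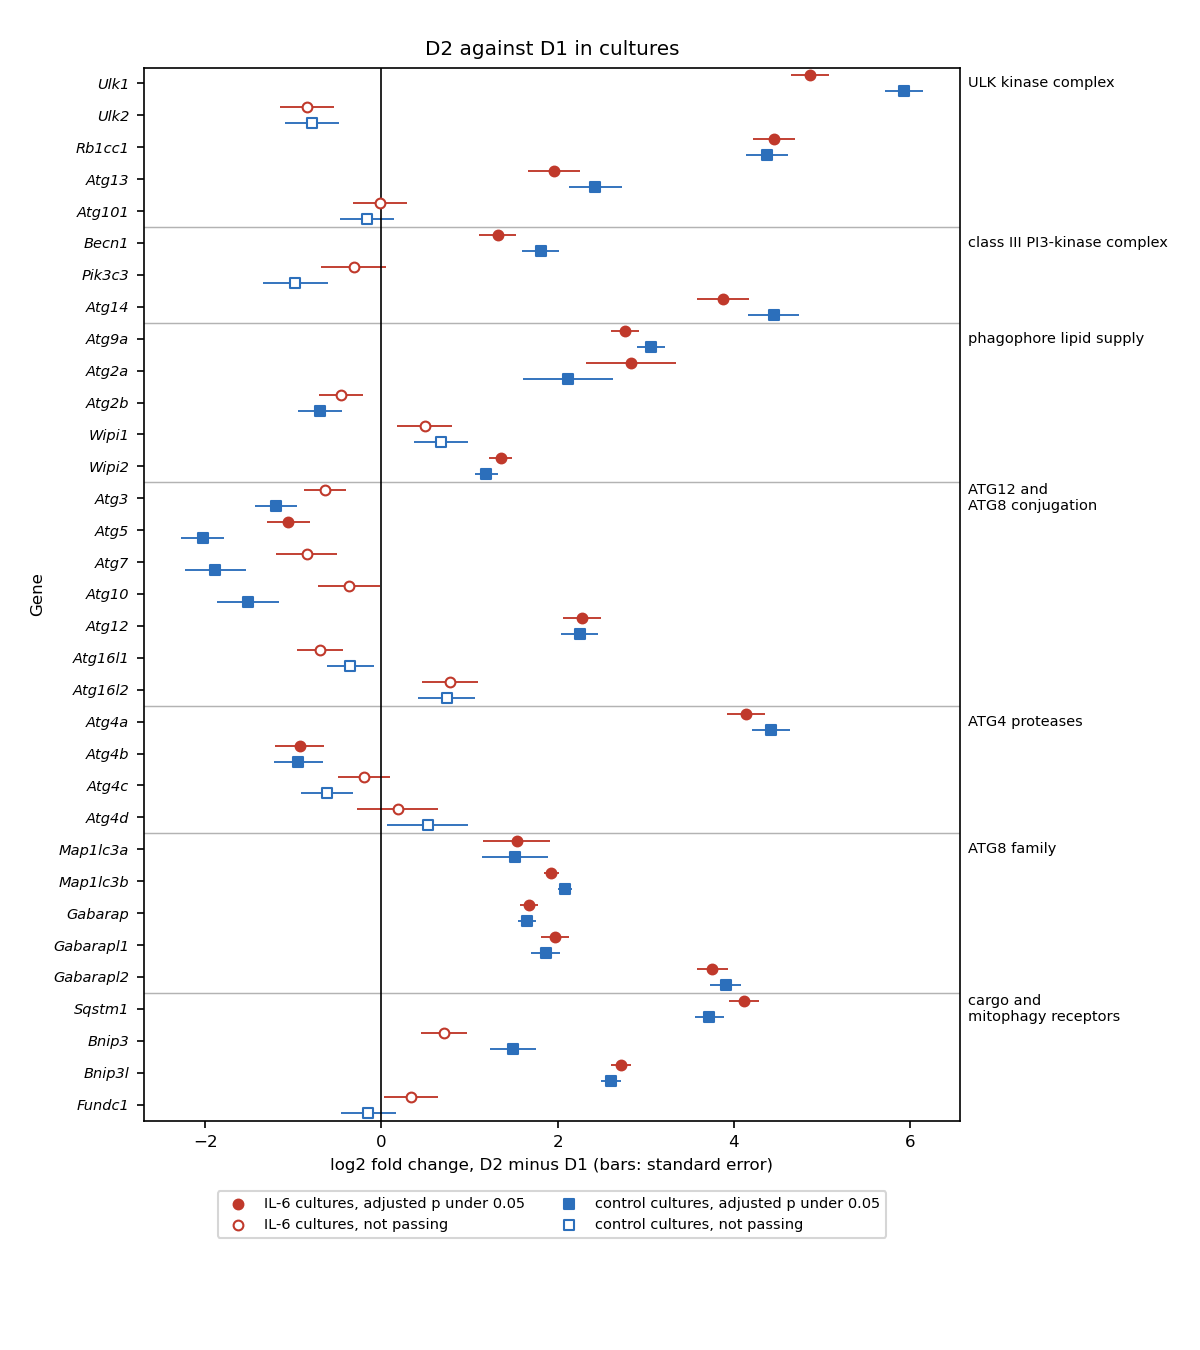
Log2 fold change at D2 over D1 with its standard error for all 33 genes, in IL-6 cultures (red circles) and control cultures (blue squares); filled symbols have a limma adjusted p under 0.05. The 5 ATG8 genes are filled on the right in both cultures, whereas Atg3, Atg7 and Atg10 are filled on the left in control cultures and open in IL-6 cultures, where Atg3 and Atg7 pass under other settings.

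Other cell types moved with these changes. The 9 monocyte and macrophage markers averaged 7.0 and 7.0 in D2-Control against 9.9 and 10.4 in D1-Control, and 7 of 9 fell. In IL-6 cultures they averaged 11.4 and 11.1 at D2 against 10.5 and 10.9 at D1, with 3 higher and 1 lower. The 5 granulocyte progenitor markers averaged 7.83 and 7.91 in D2-Control against 10.99 and 11.66 in D1-Control, and 9.38 and 9.77 in D2-IL6 against 12.47 and 12.60 in D1-IL6, with 4 of 5 lower in each culture. The 5 mast cell and basophil markers averaged 7.64 and 7.97 in D2-Control against 9.30 and 9.88 in D1-Control, and 7.14 and 7.50 in D2-IL6 against 9.03 and 9.66 in D1-IL6, with 3 lower and 1 higher in each. The 5 proerythroblast markers averaged 9.9 and 10.1 in D2-Control against 12.2 and 12.5 in D1-Control, and the 8 erythroid markers 14.8 and 14.8 in D2-Control against 14.5 and 14.6 in D1-Control. With IL-6 the proerythroblast markers averaged 10.00 and 10.04 at D2 against 12.32 and 12.24 at D1. The part of these markers in the rises and falls of the 33 genes was not tested. In such bulk samples fewer cells of a type and less RNA per cell cannot be told apart.

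The next comparison asked whether IL-6 changed these genes at a given point. At D1, 0 of the 33 genes passed between IL-6 and control cultures (limma), against 0.0511% of all probe sets. An unadjusted p under 0.05 was held by 0 of the 33 genes and by 554 of 19572 probe sets. The smallest unadjusted p was that of Sqstm1, with 12.49 and 12.80 in D1-IL6 against 12.70 and 13.17 in D1-Control (-0.29 ± 0.17), and these arrays overlapped. Bnip3l lay at 13.61 and 13.60 in D1-IL6 against 13.91 and 13.66 in D1-Control (-0.18 ± 0.12), and Wipi2 at 14.06 and 13.95 in D1-IL6 against 14.26 and 14.12 in D1-Control (-0.18 ± 0.13).

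At D2, 0 of the 33 genes passed with IL-6 against control (limma), where 3.31% of all probe sets did. An unadjusted p under 0.05 was held by 5 of the 33 genes and by 2808 of 19572 probe sets, a similar share. Ulk1 was 13.90 and 13.63 in D2-IL6 against 14.49 and 14.73 in D2-Control, a log2 fold change of -0.84 ± 0.21 (limma adjusted p = 0.0682). For Atg5 the values were 10.00 and 10.40 in D2-IL6 against 9.18 and 9.29 in D2-Control (0.97 ± 0.25, limma adjusted p = 0.0693). Atg7 had 10.45 and 11.44 in D2-IL6 against 9.60 and 10.29 in D2-Control (1.00 ± 0.35, limma adjusted p = 0.204). In each of the 3 genes the IL-6 arrays lay on 1 side of the control arrays. With dim probe sets removed, which leaves 8510 probe sets to adjust over, Ulk1 (adjusted p = 0.0336) and Atg5 (0.0332) passed, and Atg7 passed without D2-IL6 replicate 1 (0.0474). The monocyte markers averaged 11.4 and 11.1 in D2-IL6 against 7.0 and 7.0 in D2-Control, with 7 of 9 higher, and the granulocyte progenitor markers 9.38 and 9.77 in D2-IL6 against 7.83 and 7.91 in D2-Control, with 4 of 5 higher. The part of these markers in the differences was not tested. The test of whether the IL-6 effect differed between D2 and D1 passed for 0 of the 33 genes and 1.19% of all probe sets. At an unadjusted p under 0.05 it gave 3 genes and 1567 of 19572 probe sets. Among the 33 genes its smallest adjusted p was that of Ulk1 (-1.07 ± 0.30, limma adjusted p = 0.214).

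In mice, 5 of the 33 genes were higher and 1 lower at stage IV than at stage II+III in DKO, against 4.11% and 3.66% of all probe sets (limma). Wipi1 lay at 10.70 and 10.79 in DKO-IV against 8.34 and 7.74 in DKO-II+III (2.71 ± 0.50, adjusted p = 0.0105). Wipi2 had 14.78 and 14.29 in DKO-IV against 12.33 and 12.34 in DKO-II+III (2.20 ± 0.38, adjusted p = 0.00829). Ulk1 had 10.62 and 10.75 in DKO-IV against 8.14 and 8.60 in DKO-II+III (2.32 ± 0.48, adjusted p = 0.0182). These are the gene of the initiating kinase and those of the 2 PI3P readers on the list. Atg4d, a protease paralogue of Atg4b, had 10.88 and 11.10 in DKO-IV against 6.92 and 7.88 in DKO-II+III, where 1 array was near background (3.59 ± 0.69), and the Atg4a probe set had 12.82 and 12.82 in DKO-IV against 10.32 and 10.27 in DKO-II+III (2.53 ± 0.43). Atg10 had 7.01 and 7.70 in DKO-IV against 9.58 and 9.35 in DKO-II+III (-2.11 ± 0.47, adjusted p = 0.0228). The stage IV and stage II+III arrays did not overlap for 29 of the 33 genes, against 56.9% of all probe sets. None of the 6 calls remained without DKO-IV replicate 1 or without DKO-IV replicate 2, where the spread of the remaining array is taken from the other groups. Ulk1 and Atg10 also fail without either DKO-II+III array, Atg4d without DKO-II+III replicate 1 and Wipi1 without DKO-II+III replicate 2.

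In DWT the same step gave 1 lower gene and 0 higher, against 3.57% lower and 1.59% higher of all probe sets. Atg3 lay at 8.55 and 10.01 in DWT-IV against 11.21 and 11.78 in DWT-II+III (-2.21 ± 0.50, limma adjusted p = 0.0347). This call is lost without DWT-IV replicate 1, without either DWT-II+III array and under quantile normalization, with adjusted p-values up to 0.293. Ulk1 had 12.31 and 11.11 in DWT-IV against 10.26 and 9.37 in DWT-II+III (1.90 ± 0.48, limma adjusted p = 0.0504), and with the DWT mouse as a block its adjusted p was 0.0441. Atg14 had 10.50 and 9.39 in DWT-IV against 8.90 and 7.98 in DWT-II+III (1.51 ± 0.46, limma adjusted p = 0.0864). At an unadjusted p under 0.05 (limma) there were 13 of the 33 genes in DWT and 17 in DKO. Of 19572 probe sets, 4251 in DWT and 4422 in DKO met that cut. Whether the step differed between the genotypes was tested directly, as the DKO effect at stage IV minus that at stage II+III. This test passed for 0 of the 33 genes and for 0% of all probe sets. An unadjusted p under 0.05 (limma) was held by 0 of the 33 genes and by 662 of 19572 probe sets.

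The spread that these tests share includes array DKO-I replicate 2. With that array left out of the fit, 15 genes passed at stage IV against stage II+III in DKO (9 higher, 6 lower, against 8.69% and 9.8% of all probe sets) and 11 in DWT (9 higher, 2 lower, against 6.88% and 9.84%). At the same step the 9 neutrophil markers averaged 13.3 and 12.8 in DKO-IV against 16.1 and 16.1 in DKO-II+III, and 8.3 and 10.7 in DWT-IV against 12.05 and 13.8 in DWT-II+III, with 6 of 9 lower in each genotype. The 8 erythroid markers averaged 15.4 and 15.4 in DKO-IV against 12.2 and 13.0 in DKO-II+III (7 of 8 higher), and 15.7 and 15.5 in DWT-IV against 14.7 and 14.2 in DWT-II+III (2 of 8 higher). The part of these markers in the stage differences was not tested.

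From stage I to stage II+III, 0 of the 33 genes passed in DWT (0.245% of all probe sets, limma). An unadjusted p under 0.05 was held by 6 of the 33 genes and by 1457 of 19572 probe sets. The smallest p-values belonged to the Atg4a probe set (13.21 and 12.37 in DWT-II+III against 10.95 and 11.40 in DWT-I, 1.61 ± 0.43, adjusted p = 0.232), Wipi2 (13.96 and 13.53 in DWT-II+III against 12.50 and 12.21 in DWT-I, 1.39 ± 0.38) and Gabarapl2 (15.15 and 14.96 in DWT-II+III against 13.20 and 13.82 in DWT-I, 1.54 ± 0.59). The erythroid markers averaged 14.7 and 14.2 in DWT-II+III against 13.1 and 13.0 in DWT-I, and 12.2 and 13.0 in DKO-II+III against 9.9 and 9.3 in DKO-I. The neutrophil markers averaged 12.05 and 13.8 in DWT-II+III against 16.77 and 16.97 in DWT-I, and 16.1 and 16.1 in DKO-II+III against 17.6 and 16.4 in DKO-I. The part of these markers in this step was not tested. In DKO, 0 of the 33 genes passed as well (0.327% of all probe sets). Only 1 gene had an unadjusted p under 0.05 (limma), against 2038 of 19572 probe sets. Atg4b came closest, with 12.12 and 12.67 in DKO-II+III against 11.84 and 8.43 in DKO-I (2.26 ± 0.84, limma adjusted p = 0.428), where the low value is that of DKO-I replicate 2. Without that array the log2 fold change of Atg4b was 0.55, and without DKO-I replicate 1 instead 6 of the 33 genes passed, against 23.3% of all probe sets.

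**Figure D4:**
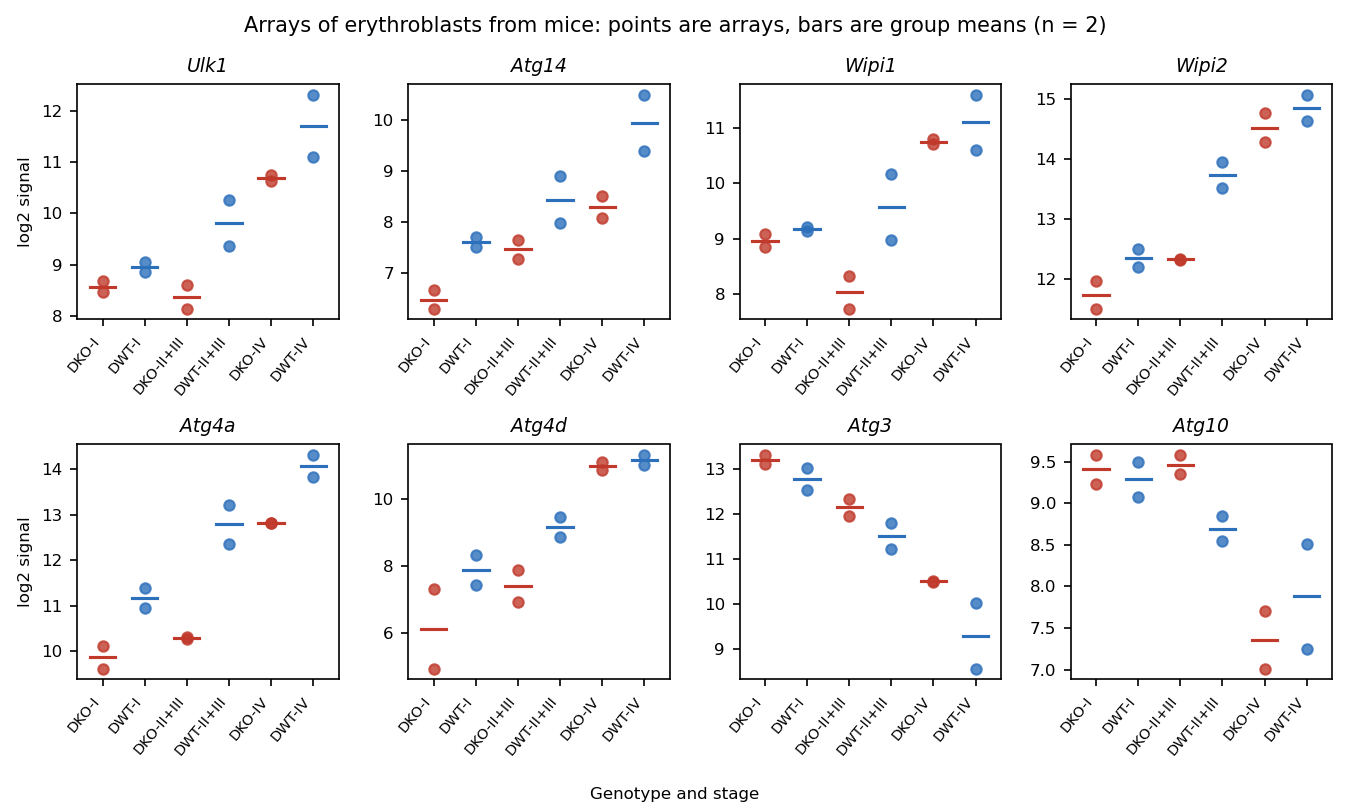
Log2 signal of 8 genes in cells from mice by labelled erythroblast stage. Each point is an array and each bar a group mean (n = 2), with DKO in red and DWT in blue. Ulk1, Wipi1, Wipi2, Atg4a and Atg4d sit higher at stage IV than at stage II+III in DKO without overlap, and the group mean of Atg3 is lower at each later stage in both genotypes.

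The double knockout was set against double wild type at each stage. At stage II+III, 10 of the 33 genes and 1816 of 19572 probe sets had an unadjusted p under 0.05 (limma). After adjustment, 1 gene was lower and 0 higher, against 0.399% and 0.22% of all probe sets. It was the Atg4a probe set, with 10.32 and 10.27 in DKO-II+III against 13.21 and 12.37 in DWT-II+III (-2.50 ± 0.43, adjusted p = 0.0303). The call is lost without any 1 of these 4 arrays. It is also lost with the DWT mouse as a block (-2.35, limma adjusted p = 0.158). That fit sets DKO against the fitted level of DWT replicate 2, not against the DWT mean. Wipi2 had 12.33 and 12.34 in DKO-II+III against 13.96 and 13.53 in DWT-II+III (-1.41 ± 0.38, limma adjusted p = 0.164). Bnip3l had 14.15 and 15.53 in DKO-II+III against 16.29 and 16.50 in DWT-II+III (-1.55 ± 0.43, limma adjusted p = 0.178). Neither pair of groups overlapped, and over the list this held for 27 of the 33 genes against 44.2% of all probe sets. In the same arrays the erythroid markers averaged 12.2 and 13.0 in DKO-II+III against 14.7 and 14.2 in DWT-II+III, and the neutrophil markers 16.1 and 16.1 in DKO-II+III against 12.05 and 13.8 in DWT-II+III. The monocyte and macrophage markers averaged 12.98 and 14.11 in DKO-II+III against 11.83 and 12.37 in DWT-II+III. The part of these markers in the differences was not tested.

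At stage IV, 0 of the 33 genes passed, against 0.046% of all probe sets (limma). An unadjusted p under 0.05 was held by 4 of the 33 genes and by 1588 of 19572 probe sets. Atg14 had 8.08 and 8.51 in DKO-IV against 10.50 and 9.39 in DWT-IV (-1.65 ± 0.46, limma adjusted p = 0.335), the Atg4a probe set 12.82 and 12.82 in DKO-IV against 14.31 and 13.84 in DWT-IV (-1.25 ± 0.43), and Atg3 10.48 and 10.51 in DKO-IV against 8.55 and 10.01 in DWT-IV (1.21 ± 0.50). Their DKO and DWT arrays did not overlap. In the same arrays the neutrophil markers averaged 13.3 and 12.8 in DKO-IV against 8.3 and 10.7 in DWT-IV. The monocyte and macrophage markers averaged 11.22 and 11.03 in DKO-IV against 9.39 and 9.66 in DWT-IV. The erythroid markers averaged 15.4 and 15.4 in DKO-IV against 15.7 and 15.5 in DWT-IV. At stage I, 0 passed, against 0.445% of all probe sets (limma). There, 6 of the 33 genes and 3028 of 19572 probe sets had an unadjusted p under 0.05. The Atg4a probe set had 10.11 and 9.62 in DKO-I against 10.95 and 11.40 in DWT-I (-1.31 ± 0.43, limma adjusted p = 0.253). Atg4d had 7.31 and 4.92 in DKO-I, both near background, against 8.33 and 7.42 in DWT-I, the second of them near background, a change bounded at -0.19 against that level. Atg2b had 8.69 and 8.11 in DKO-I against 9.77 and 9.56 in DWT-I (-1.27 ± 0.50). At this stage the erythroid markers averaged 9.9 and 9.3 in DKO-I against 13.1 and 13.0 in DWT-I. The neutrophil markers averaged 17.6 and 16.4 in DKO-I against 16.77 and 16.97 in DWT-I. The part of cell type markers in the differences at stages I and IV was not tested. With DKO-I replicate 1 left out, so that only the array that stands apart represents DKO-I, 9 genes passed (2 higher, 7 lower, against 16.8% and 14.2% of all probe sets). With that array left out instead, 0 passed. The change of the DKO effect between stages II+III and I passed for 0 of the 33 genes and 0% of all probe sets. An unadjusted p under 0.05 (limma) was held by 0 of the 33 genes and by 942 of 19572 probe sets.

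**Figure D5:**
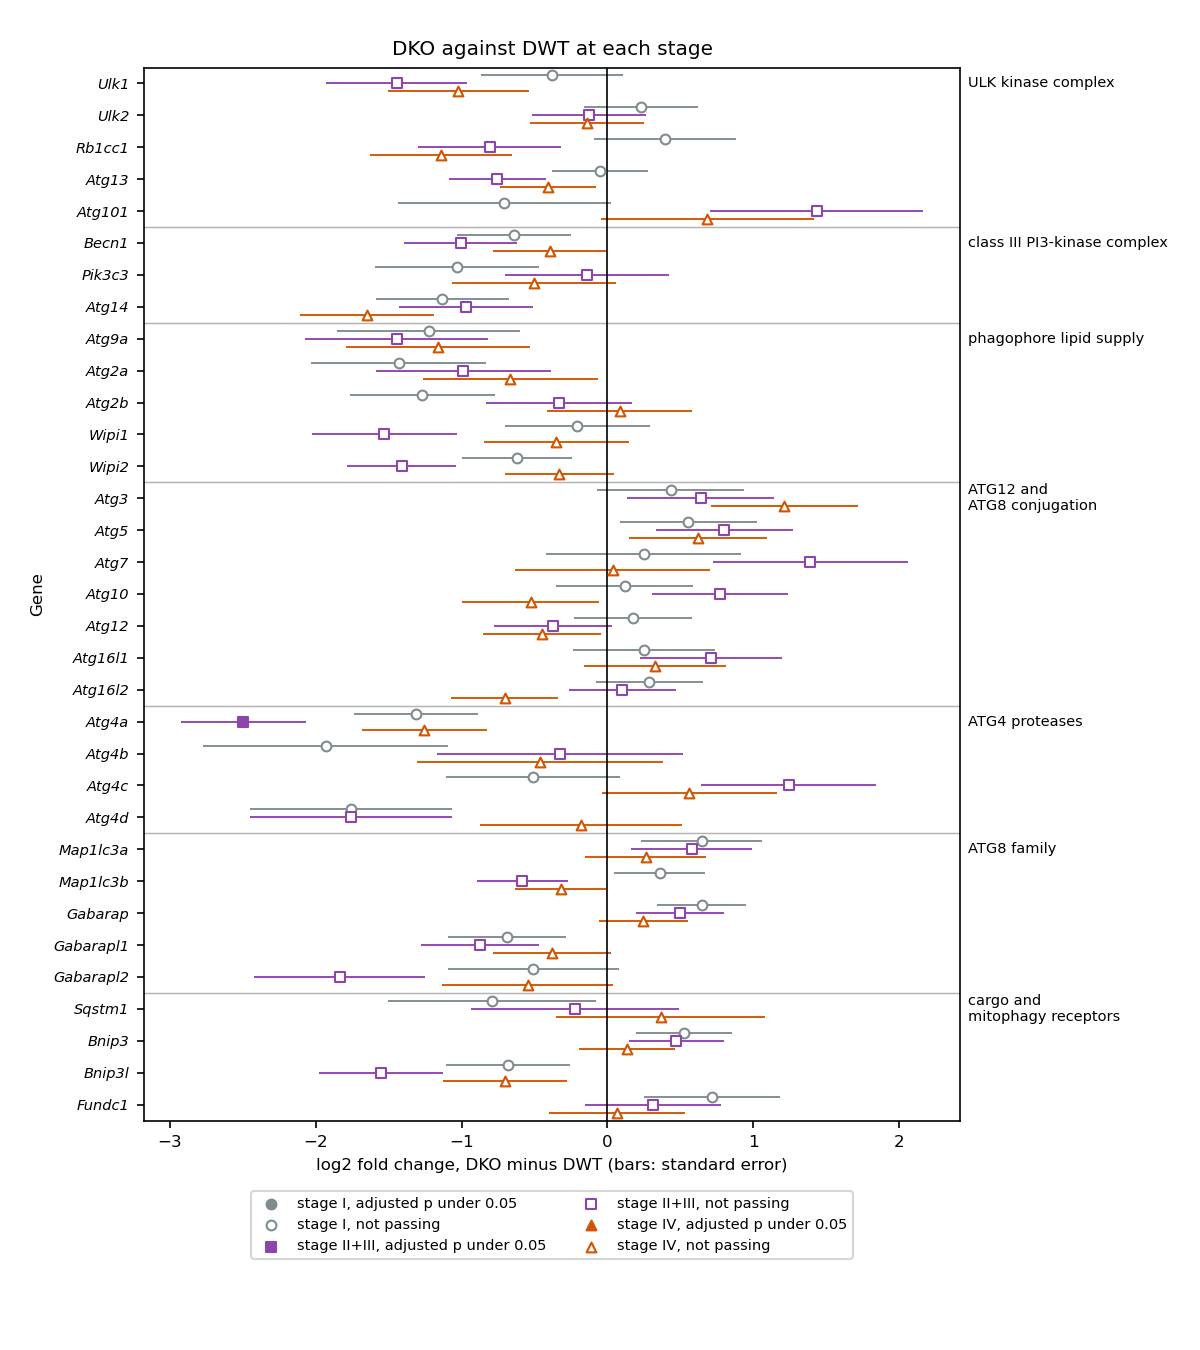
Log2 fold change of DKO over DWT with its standard error for all 33 genes at stage I (grey circles), II+III (purple squares) and IV (orange triangles); a filled symbol has a limma adjusted p under 0.05. The 1 filled symbol is the Atg4a probe set at stage II+III, at -2.50.

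Genes around this machinery were described in the same fits, and their counts stand against the 19.7% higher and 23.5% lower of all probe sets at D2 in control cultures and 13% and 20.2% in IL-6 cultures. Of 14 further cargo receptors and mitophagy factors, 7 were higher and 3 lower at D2 than at D1 in control cultures. Calcoco1, a receptor related to NDP52, lay at 15.08 and 15.11 in D2-Control against 8.98 and 8.54 in D1-Control (6.33 ± 0.22), and at 15.20 and 15.11 in D2-IL6 against 8.26 and 8.56 in D1-IL6 (6.74 ± 0.22), above the rise of every gene on the main list. The receptors Tax1bp1 and Nbr1 rose by 3.50 and 2.83 in control cultures, and Phb2, an inner membrane mitophagy receptor, fell by 2.97. Of 10 further genes of initiation, 3 were higher and 4 lower, led by Wdr45 (5.30 ± 0.23), a relative of Wipi1, and Tbc1d5 (-2.56 ± 0.21), a Rab7 regulator. Of 18 upstream kinases and nutrient sensors, 6 were higher and 5 lower, among them Sesn2 (5.28 ± 0.32), a brake on mTORC1, and Rptor (-3.10 ± 0.31), a subunit of mTORC1. Foxo3, which activates autophagy genes, rose by 2.87 ± 0.19 in control and 2.95 ± 0.19 in IL-6 cultures. Genes of its list, of lysosome and FOXO transcription factors, moved both ways in control cultures. Tfe3 changed by 1.97, Zkscan3 by -1.33, and Mitf by -2.24 with its control culture arrays near background.

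Of 12 lysosomal hydrolases 1 was higher and 7 lower at D2 in control cultures, led by Gaa (-5.12 ± 0.46) and Ctsz (-4.96 ± 0.27), and in IL-6 cultures 2 were higher and 4 lower. For Gaa (6.37 and 8.12) and for Ctsz, 1 D2-Control array was near background, which limits the size of these falls. Of 19 genes of the lysosomal membrane and its proton pump, 8 were higher and 3 lower in control cultures, with the pump subunits Atp6v0d1 (1.90) and Atp6v1e1 (1.71) up and the tetraspanin Cd63 (-4.57) down. With IL-6 against control at D2, 6 of 12 hydrolases and 3 of 19 membrane genes were higher and 0 lower, against 3.31% of all probe sets in either direction. Ctsz had 11.94 and 12.27 in D2-IL6 against 7.87 and 7.24 in D2-Control (4.55 ± 0.27). The monocyte and granulocyte progenitor markers were higher in the same arrays, and their part in the hydrolase values was not tested. The test of the difference of the IL-6 effect between D2 and D1 passed for Ctsz (4.03 ± 0.38) and Hexa (4.04 ± 0.53). Of 13 genes of the mitochondrial outer membrane and its dynamics, 2 were higher and 8 lower in both cultures, with Tomm40, the import channel, at -3.67 ± 0.31 in control and -3.54 ± 0.31 in IL-6 cultures. Both D2 groups were near background for Tomm40, and against that level these changes are bounded at -2.49 and -2.48. Of 14 fusion genes 3 were higher and 6 lower in control cultures, with Epg5, a tether of autophagosomes and lysosomes, up by 3.14 ± 0.38.

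Single genes of these lists also moved at stage IV against stage II+III in mice. There, 4.11% of all probe sets were higher and 3.66% lower in DKO, and 1.59% and 3.57% in DWT. Counts per list are not given for this step, so the genes named do not describe their lists as a whole. Foxo3 had 11.13 and 11.06 in DKO-IV against 8.51 and 8.48 in DKO-II+III (2.60 ± 0.41), and 12.85 and 11.95 in DWT-IV against 10.79 and 10.52 in DWT-II+III (1.74 ± 0.41). Cd63 had log2 fold changes of -2.54 in DKO and -2.88 in DWT, and the lysosomal membrane gene Lamp2 of -2.14 and -2.08. The hydrolases Gusb (-2.88 in DKO, -3.65 in DWT) and Lipa (-2.25, -2.19) fell in both genotypes as well. The mitophagy receptor Bcl2l13 (2.28 ± 0.39) and the mitochondrial ubiquitin ligase Marchf5 (1.96 ± 0.42) rose in DKO. At this step 6 of 9 neutrophil markers fell in each genotype. The monocyte and macrophage markers averaged 11.22 and 11.03 in DKO-IV against 12.98 and 14.11 in DKO-II+III (2 of 9 lower), and 9.39 and 9.66 in DWT-IV against 11.83 and 12.37 in DWT-II+III (4 of 9 lower). The granulocyte progenitor markers averaged 11.44 and 8.53 in DKO-IV against 15.21 and 14.38 in DKO-II+III (3 of 5 lower), and 9.92 and 10.47 in DWT-IV against 13.79 and 14.36 in DWT-II+III (1 of 5 lower). The part of these markers in the falls of lysosomal genes was not tested.

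Among the 33 genes, 10 fell near background on 1 or more arrays: Atg4c on 19 of 20, Map1lc3a on 17, Bnip3 on 16, Atg16l2 on 14, Pik3c3 on 13, Atg14 on 7, Atg10 on 6, and Atg2a, Atg16l1 and Atg4d on 4 each. The other 23 were above background on every array. Among genes not yet given by array, Gabarap ranged by group mean from 14.42 in D1-IL6 to 16.13 in D2-Control, Gabarapl1 from 11.29 in DKO-I to 15.42 in D2-IL6, and Fundc1 from 8.10 in DWT-IV to 10.47 in DKO-I. Map1lc3b lay between 14.97 and 17.16 on all 20 arrays.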

How the data were processed

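Cells of each group were hybridised to Clariom S arrays, 2 per group, from small amounts of total RNA amplified with a Pico kit and with no technical replicates, per the labels' protocols. The authors deposited log2 values. Per the submitters' processing notes, which name no version, these were made by the RMA method (robust multi-array average) with Affymetrix Expression Console. Of 28846 probe sets, 19572 carried 1 gene symbol and entered the tests. Array signals carry no count depth, and the number of arrays limits the precision.

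Contrasts of groups were tested by limma 3.58.1 under R 4.3.3, using lmFit and a trended eBayes. Cultured arrays (8) and arrays from mice (12) had separate fits, the residual degrees of freedom being 4 and 6 and the prior ones 6.41 and 4.52. p-values were adjusted by Benjamini-Hochberg over 19572 probe sets for each of 14 comparisons, and a gene passed at an adjusted p under 0.05. The code was tested on simulated data. Where both arrays of 1 group were near background, the difference is given as a bound against that level.

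The genes and lists were chosen with earlier results of these data known. The text names every gene of the list, gives array values for those that passed (at most 10 in each direction, largest change first), and, where fewer than 3 passed, for the 3 with the smallest unadjusted p. From companion lists it gives counts in some culture comparisons and at most 4 passing genes per list and comparison. These are not always the genes with the largest changes. Promoters came from RefSeq tables of GRCm38.p6, matched by gene ID.

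Replicates 1 and 2 of DWT were taken as the male and the female mouse of each stage, since the labels give the sex and the series 2 mice per genotype. Over all tested probe sets, the male-minus-female deviations correlated at 0.0988 (stages I and II+III), 0.0214 (I and IV) and 0.1244 (II+III and IV). The alternatives tried were quantile normalization, median centring, a filter that keeps probe sets above background on 2 or more arrays, no intensity trend, all 20 arrays in one fit, the DWT mouse as a block, each array left out in turn, DKO-I replicate 2 left out of the shared spread, and the list without Atg4a. Median centring and the last 2 were added after seeing the data. The block is a term for replicate 1 of DWT. With it, DKO against DWT is read at the fitted level of DWT replicate 2.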

Additional observations from a re-analysis of the deposited data

How the results depend on the processing

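Over all 14 comparisons, the count of genes that passed stayed within 1.5 times of the reported count in 137 alternatives and was further off in 30, which follow. In the 475 alternatives for single genes that passed, the sign was the same in 475 and the call held in 423. With IL-6 against control at D2 the filter on dim probe sets gave 2 genes. For DKO against DWT at stage II+III the count was 3 with all 20 arrays in one fit, 2 with DKO-I replicate 2 left out of the spread, 0 without Atg4a and 0 with the replicate block of DWT mice. For stage II+III against stage I in DWT it was 2 with all 20 arrays and 1 with DKO-I replicate 2 left out. For stage IV against stage II+III in DWT it was 2 under quantile normalization, the dim filter, no trend and the replicate block, 8 with all 20 arrays and 11 with DKO-I replicate 2 left out. In DKO that step gave 10 with the dim filter, 13 with all 20 arrays and 15 with DKO-I replicate 2 left out. The block changed no other call. For most of these settings the share of all probe sets that passed is not given. Where it is given above, it differs from that of the main fit. A count that moved is therefore not read as particular to these genes.

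Leaving out 1 array at a time gave 20 to 24 genes at D2 against D1 in control and 17 to 20 in IL-6 cultures. The range was 0 to 1 with IL-6 against control at D2, 0 to 9 for DKO against DWT at stage I, 0 to 2 for stage IV against stage II+III in DWT, 0 to 6 for stage II+III against stage I in DKO, 0 to 4 for stage IV against stage II+III in DKO and 0 to 4 for the change of the DKO effect between stages II+III and I. It was 0 to 0 in the other 6 comparisons. The same limit holds for these ranges, which are given without the shares of all probe sets.

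Some genes that passed only without DKO-I replicate 1 turned sign without DKO-I replicate 2, and the lowest and highest values over single arrays left out follow. For DKO against DWT at stage I these were -2.03 and 0.62 for Atg101, -0.023 and 0.74 for Map1lc3b, and -2.14 and 0.55 for Sqstm1. For stage II+III against stage I in DKO they were -0.49 and 2.16 for Atg101, -0.39 and 1.76 for Atg9a, and -0.22 and 1.95 for Atg2a. For the change of the DKO effect they were -0.10 and 3.32 for Atg4b, and -0.78 and 1.92 for Sqstm1. The cause was not tested. In control cultures Pik3c3, Atg16l2, Atg4c and Atg4d, and in IL-6 cultures Atg16l1, Atg16l2 and Bnip3, passed at D2 against D1 under 1 or 2 alternatives only. Levels near background limit Atg4c, Map1lc3a, Bnip3, Atg16l2 and Pik3c3.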
